A study of Rattus norvegicus with 24 samples.

Results

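Nerves that reach a muscle carry Schwann cells, which wrap axons in myelin or hold them in unmyelinated bundles, and muscle and nerve keep each other informed through secreted neurotrophic factors and their receptors. Cutting a nerve is known to switch Schwann cells from myelin genes to repair genes and to raise several trophic factors, but a nerve silenced with tetrodotoxin (TTX), a blocker of voltage-gated sodium channels, stays in place and only stops conducting. The 9 genes described here stand for both sides of this exchange: the myelin genes *Mbp*, *Pmp22* and *Prx*, the Schwann cell genes *S100b* and *Ngfr*, the adhesion molecule gene *Ncam1*, the secreted factor genes *Artn* and *Ntf3*, and the netrin receptor gene *Unc5a*. They were chosen by symbol, with earlier results of these data known, and each is represented by the row with the highest mean. All 9 were found among 13458 symbols and 14243 rows, and they hold 17 of those rows, since *Mbp* has 6 transcript rows and *Ntf3* has 4. The question was whether silencing a nerve without cutting it changes the transcripts of these myelin and trophic signals in the muscle it supplies.

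The tibialis anterior (TA), the muscle that lifts the foot, was profiled by RNA sequencing in both limbs of 12 male Fischer 344 rats aged 23 months, which gave 24 limbs. In 9 rats the left common peroneal nerve received TTX from an implanted osmotic pump. After 6 to 7 days of TTX came atrophy (animals 362, 367 and 372). After a further 9 days without TTX came recovery (369, 370 and 371), and after 5 to 6 more days of TTX came repeated atrophy (364, 365 and 366). The right limbs of these 9 rats were left untreated and are called control, so that the control limbs come from operated and treated animals. In 3 sham rats (354, 377 and 379, 1 per time point) the left limb had the same surgery with saline, which gave sham left and sham right limbs, 3 each. Each limb is a separate sample, and the left and right limb of a rat share the animal.

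Values are CPM, the reads of a row scaled to a common library total. Library depth, inferred from the value of 1 read, was 18900000 to 30900000 reads, and 1 read was worth 0.0324 to 0.0530 CPM. Differences are log2 fold changes of CPM + 1, tested with limma over all rows, and a row passed where the fold reached 1.2 and the adjusted p did not exceed 0.05. The median of all rows moved by 0.22 (log2) in atrophy and 0.20 in repeated atrophy against control, by 0.02 in recovery and by 0.17 in sham left limbs, which received no TTX. After rescaling each limb by a trimmed mean of log ratios the medians in atrophy, repeated atrophy, recovery and sham left were 0.00, -0.01, 0.01 and 0.01, and the share of higher rows among those that passed went in atrophy from 89.7% to 48.7%, in recovery from 56.9% to 50.3%, and in repeated atrophy from 81.8% to 52.2%. Muscle markers differed as well: 5 fibre genes (*Acta1*, *Ckm*, *Tnnt3*, *Myh4*, *Mylpf*) summed to 103140 to 171433 CPM in control limbs, 50185 to 111618 in atrophy and 75495 to 101949 in repeated atrophy. Recovery limbs read 127778 to 138150 CPM. The sham limbs were also low, at 79305 to 124124 CPM on the left and 85948 to 142840 on the right, with medians of 104240 and 103447 against 153768 in control. In whole muscle, fewer cells of a type and less RNA per cell cannot be told apart. The libraries of sham animal 354 stood apart, with *Gzmb*, a cytotoxic lymphocyte gene, at 68.9 and 59.3 CPM in its left and right limb against at most 1.55 CPM in the other 4 sham limbs.

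Of the 9 genes, 4 passed in atrophy against control (22.6% of all rows passed), 1 in recovery (7.73%) and 3 in repeated atrophy (34.3%). *Ncam1* and *Artn* rose in both TTX periods, *Unc5a* fell in all 3 states, and *Prx* fell in atrophy. *Mbp*, *Pmp22*, *S100b*, *Ngfr* and *Ntf3* passed in none of the 3 comparisons. The median log2 fold change of the 9 genes was -0.09, 0.06 and -0.03 in atrophy, recovery and repeated atrophy. With the animal as a replicate block, which sets each left limb against the right limb of the same rat, 0, 0 and 4 of the 9 passed, and of all rows 0, 9 and 3806 passed in place of 3171, 1084 and 4812. *Ncam1*, *Artn* and *Unc5a* in repeated atrophy passed in both fits. With block and rescaling together *Artn* in repeated atrophy did not pass (0.82, adjusted p = 0.0533), and with a pseudocount of 10 its fold fell short of 1.2 in both TTX states. *Prx* in repeated atrophy passed with the block and also after rescaling alone, but not with neither.

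**Figure D1:**
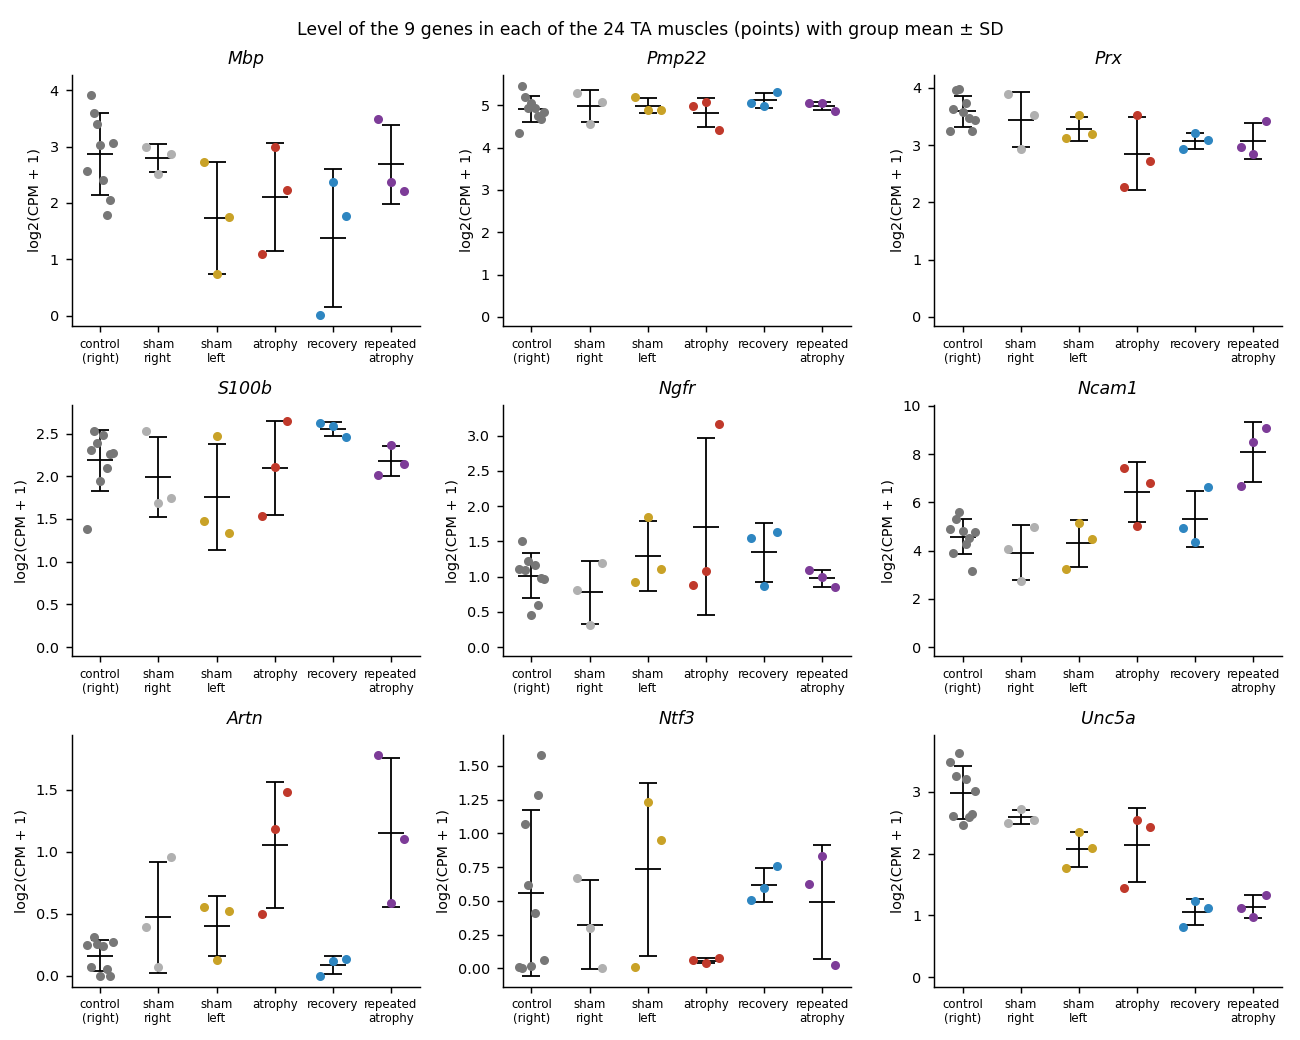
Level of each of the 9 genes, as log2(CPM + 1), in every limb (points) by group, with the group mean and SD in black. *Ncam1* and *Artn* stand above control in repeated atrophy, *Unc5a* stands below control in recovery and repeated atrophy, and *Pmp22* and *S100b* overlap the control limbs in every group.

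*Mbp* encodes myelin basic protein, which compacts the myelin membrane, *Pmp22* encodes a membrane protein of peripheral myelin, and *Prx* encodes periaxin, which links the myelin sheath to the surrounding basal lamina. *Pmp22* (chromosome 10, 47795709 to 47825715 in rn7, plus strand) read 29.8 ± 6.79 CPM (SD, n = 9) in control limbs, with a lowest value of 19.4 and a highest of 42.9. It read 30.6, 32.7 and 20.5 CPM in atrophy, 32.1, 30.8 and 38.9 in recovery and 32.0, 32.1 and 28.1 in repeated atrophy, so that each treated limb lay within the control range. The log2 fold changes were -0.09 (95% confidence interval -0.48 to 0.31), 0.20 (-0.19 to 0.60) and 0.07 (-0.32 to 0.47). With the block and the rescaling together, *Pmp22* was lower in repeated atrophy by that fit (-0.58, adjusted p = 0.0308).

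*Prx* (chromosome 1, 82786817 to 82807155 in rn7, plus strand) was the myelin gene that differed. Control limbs read 8.50 to 14.8 CPM (median 10.9), atrophy limbs 3.84, 10.6 and 5.63, recovery limbs 6.63, 8.23 and 7.49, and repeated atrophy limbs 6.78, 6.14 and 9.73 CPM. The 3 recovery limbs lay below every control limb, 2 of the 3 atrophy limbs did, and 2 of the 3 repeated atrophy limbs did. *Prx* fell by 0.74 in atrophy (SE 0.23, adjusted p = 0.0298), and its difference was -0.51 in recovery (adjusted p = 0.177) and -0.52 in repeated atrophy (adjusted p = 0.0963). Left limbs were lower than right limbs in all 9 TTX animals, and in 2 of 3 sham animals. With the block, the atrophy difference did not pass (-0.57, adjusted p = 0.246) and the repeated atrophy difference did (-0.78, adjusted p = 0.0385), and the latter passed after rescaling too (-0.85, adjusted p = 0.0172). Without animal 362 the atrophy value was -0.50 (adjusted p = 0.265), and without animal 372 it was -0.70 (adjusted p = 0.105).

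*Mbp* (chromosome 18, plus strand) is spread over 6 transcript rows whose reads were divided by an estimate, so single rows are less certain than their sum. The row of 1959 bases, the highest, read 2.43 to 14.1 CPM in control limbs and 1.12, 7.00 and 3.72 in atrophy. It read 0.00646, 4.16 and 2.40 CPM in recovery and 10.2, 4.14 and 3.62 in repeated atrophy. In the recovery limb at 0.00646 CPM, the row of 2082 bases read 3.87 CPM, and the 6 rows together read 6.28 CPM. Summed over the 6 rows, *Mbp* read 11.2 ± 4.32 CPM (n = 9) in control, 8.08 ± 3.13 in atrophy, 6.68 ± 1.43 in recovery, 9.45 ± 2.52 in repeated atrophy, 6.94 ± 2.34 in sham left and 7.56 ± 1.95 in sham right limbs. The groups overlapped, and the sums differed from control by -0.40, -0.60 and -0.17 in atrophy, recovery and repeated atrophy (adjusted p = 0.328, 0.192 and 0.698). Within animals the repeated atrophy value was larger: the left limb lay below the right in 3 of 3 animals, by a mean of -0.67 ± 0.12 (SD), and with the block the difference was -0.67 (adjusted p = 0.0827). The right limbs of these animals read 19.6, 14.4 and 12.8 CPM and the left limbs 12.35, 7.77 and 8.24 CPM. The mean difference within animals was -0.20 ± 0.46 in atrophy and -0.30 ± 0.66 in recovery, with the left limb lower in 2 of 3 animals in each. For the highest row alone in repeated atrophy it was -0.96 ± 0.45 (adjusted p = 0.168 with the block). In the sham animals the highest row differed by -1.06 ± 0.75, with the left limb lower in 3 of 3, and the sum by -0.13 ± 0.59 (lower in 2 of 3). The sum in sham left limbs differed from control by -0.59 (adjusted p = 0.378), which is close to the value in recovery. For the highest row alone, the recovery difference was -1.49 (adjusted p = 0.0768), and it passed without animal 370 (-2.12, adjusted p = 0.0471).

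**Figure D2:**
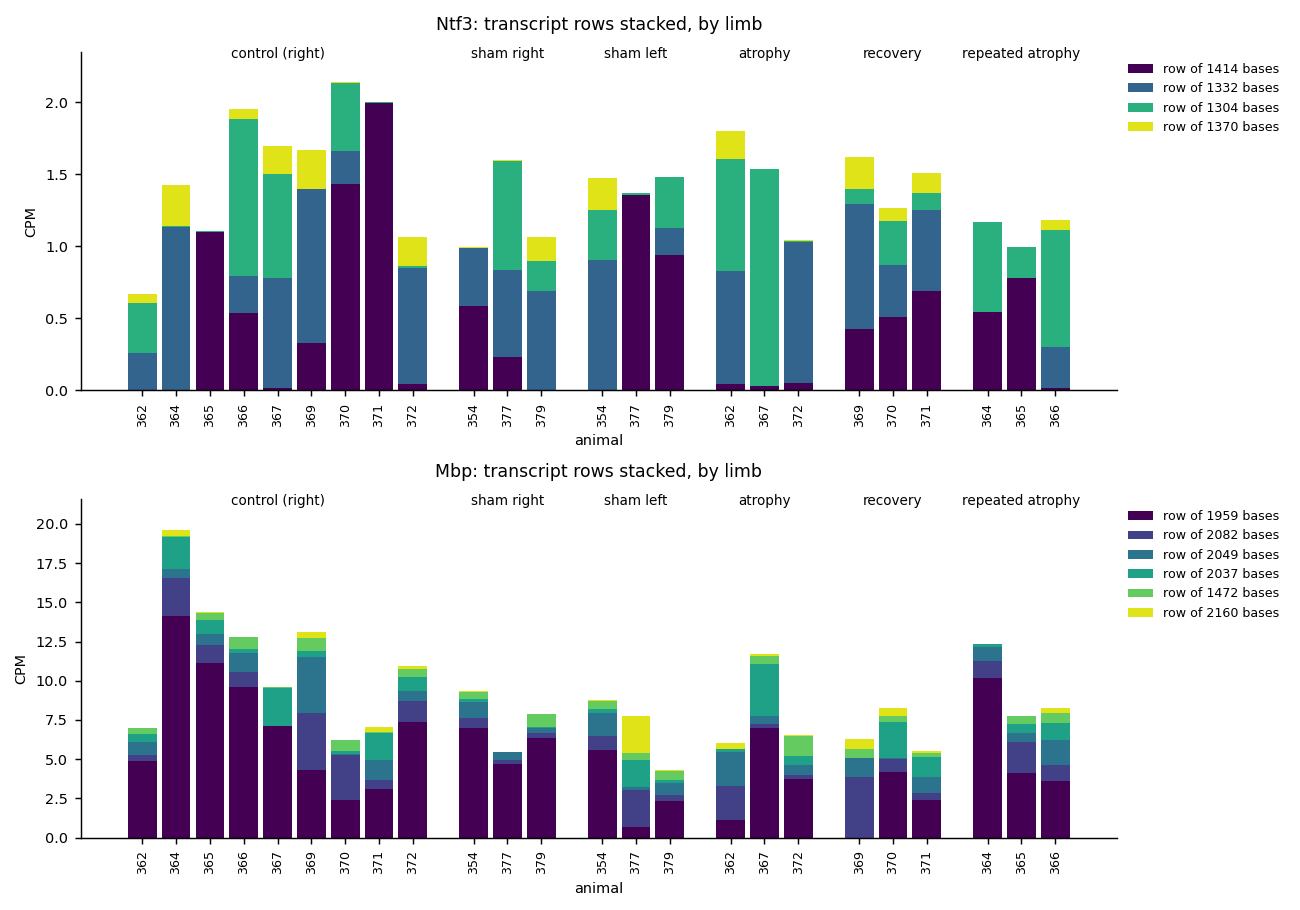
CPM of the transcript rows of *Ntf3* (top, 4 rows) and *Mbp* (bottom, 6 rows), stacked for each of the 24 limbs, which are labelled by animal. The height of a bar is the sum of the rows, and the row that holds most of a bar changes from limb to limb, as between the atrophy limbs of *Ntf3*.

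Among 14 other myelin genes, 1 passed in atrophy, 1 in recovery and 2 in repeated atrophy, beside 22.6%, 7.73% and 34.3% of all rows. The median log2 fold change of the 14 was -0.16, -0.06 and -0.08. *Nfasc*, which encodes the node and axon adhesion molecule neurofascin, fell by 1.52 in repeated atrophy (adjusted p = 0.0293), from 0.271 to 7.31 CPM in control limbs to 1.83, 0.024 and 0.889 CPM. This is 1 of several rows of *Nfasc* among which reads were divided by an estimate, and the value did not pass without animal 365 (adjusted p = 0.245) or 366 (adjusted p = 0.0953). Summed over its rows, *Nfasc* fell by 1.22 in atrophy (adjusted p = 0.0103, 0.248 with the block) and by 1.87 in repeated atrophy (adjusted p = 0.000225, 0.00405 with the block). *Cnp*, a phosphodiesterase gene of myelinating glia, rose by 1.19 (adjusted p = 0.00720), from 9.52 to 25 CPM in control to 21.2, 44.9 and 51.1 CPM. The single genes that passed elsewhere, named after their values were seen, were *Cldn19*, a Schwann cell claudin gene, lower in atrophy by 0.45 (-0.45, adjusted p = 0.0182), and *Pllp*, a myelin lipid raft gene, at -0.66 in recovery (adjusted p = 0.0152). With the block neither passed there (adjusted p = 0.247 and 0.259), and *Cldn19* passed in repeated atrophy (-0.53, adjusted p = 0.0135). Over the list the block left 0 of the 14 in atrophy and recovery and gave 4 in repeated atrophy, beside 0, 9 and 3806 of 14031 rows. In repeated atrophy *Cnp* was higher and *Cldn19*, *Nfasc* and the adhesion gene *Cadm4* were lower, with a median of -0.26.

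*S100b*, a calcium-binding protein gene used to mark Schwann cells, passed in none of the 3 comparisons. It read 1.60 to 4.78 CPM in control limbs (mean 3.66 ± 0.975, n = 9), 1.90, 3.30 and 5.27 in atrophy, 5.16, 4.99 and 4.52 in recovery, and 3.06, 4.15 and 3.44 in repeated atrophy. The limbs at 5.27, 5.16 and 4.99 CPM lay above every control limb. The log2 differences were -0.09, 0.37 and -0.01, with 95% intervals of -0.59 to 0.41, -0.13 to 0.87 and -0.51 to 0.49. Within animals the left limb was higher in 3 of 3 in atrophy (0.23 ± 0.13) and in recovery (0.28 ± 0.18). It was lower in 3 of 3 in repeated atrophy (-0.23 ± 0.06). Sham left limbs read 1.79, 4.56 and 1.52 CPM, and sham right limbs 4.78, 2.23 and 2.36 CPM. *S100b* lies on chromosome 20 (12372882 to 12381620 in rn7, minus strand).

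*Ngfr* encodes p75, the low-affinity receptor of all neurotrophins, which is known to return in Schwann cells after nerve injury. Control limbs read 0.371 to 1.84 CPM, atrophy limbs 0.850, 1.11 and 7.97, recovery limbs 1.92, 0.819 and 2.09, and repeated atrophy limbs 1.13, 0.993 and 0.802 CPM. The value of 7.97 CPM, in animal 372, corresponds to 245 reads and was the highest of the 24 limbs, while the other atrophy limbs had 25 and 29 reads and lay within the control range. Sham left limbs of animals 354, 377 and 379 read 0.893, 2.61 and 1.15 CPM, and their right limbs 0.757, 0.242 and 1.29 CPM. The left limb of animal 377, which received no TTX, thus lay above every control limb too, as did the recovery limbs at 1.92 and 2.09 CPM. The differences from control were 0.70 (adjusted p = 0.141), 0.33 (adjusted p = 0.577) and -0.03 (adjusted p = 0.958). *Ngfr* lies on chromosome 10 (80515296 to 80533519, minus strand).

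Of 11 measured Schwann cell identity genes, 1 rose in atrophy and 0 passed in the other states, where 22.6%, 7.73% and 34.3% of all rows passed in atrophy, recovery and repeated atrophy. The gene was *Ncam2*, an adhesion molecule gene named after its value was seen (0.31, adjusted p = 0.0266), and it did not pass with the block (adjusted p = 0.188) or after rescaling (adjusted p = 0.0854). *Sox10*, the transcription factor gene that defines the lineage, read 0.613 to 2.86 CPM in control limbs, and its differences were -0.13, -0.42 and -0.05 with adjusted p of 0.757, 0.323 and 0.903. Of 12 genes that Schwann cells are known to raise after nerve injury, 2 rose in atrophy, 1 in recovery and 2 in repeated atrophy, with medians of 0.03, 0.01 and 0.02. *Jun*, the transcription factor gene of repair cells, which is also active in many other cells, rose by 0.95 in atrophy and 1.11 in repeated atrophy (adjusted p = 0.0102 and 0.00131). *Uchl1*, a ubiquitin hydrolase gene of neurons, rose by 1.62 and 2.12 (adjusted p = 0.0175 and 0.00164). *Gap43*, a growth cone protein gene, rose by 0.98 in recovery (adjusted p = 0.0333), from 0.378 to 1.78 CPM in control limbs to 2.94, 1.72 and 3.16 CPM. With the block, *Jun* and *Uchl1* did not pass in atrophy (adjusted p = 0.200 and 0.309), nor did *Gap43* in recovery (adjusted p = 0.244). After rescaling 0 of the 12 passed in atrophy, where *Jun* differed by 0.58 (adjusted p = 0.0618) and *Uchl1* by 1.32 (adjusted p = 0.0528), and in repeated atrophy *Jun* rose by 0.73 (adjusted p = 0.00944). *Gdnf*, *Bdnf* and the other injury genes of the list, *Shh*, *Olig1*, *Sox2*, *Gfap*, *Btc*, *Lif* and *Tgfa*, passed in none of the 3 comparisons.

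Summed levels of cell type markers stood beside these results. The 4 markers of myelinating Schwann cells *Mag*, *Egr2*, *Drp2* and *Ncmap* summed to 1.23 to 2.34 CPM in control limbs, to 1.2 to 2.45 CPM under atrophy, to 1.27 to 2.53 CPM under recovery and to 0.963 to 2.06 CPM under repeated atrophy, and *Ncmap* was at 0 in 2 limbs. The lineage markers *Sox10*, *Erbb3* and *Cdh19* summed to 0.940 to 2.92, 1.16 to 4.55, 1.42 to 3.99 and 1.59 to 2.16 CPM, with *Cdh19* at 0 in 3 limbs. The 5 measured fibroblast markers (*Pdgfra*, *Dcn*, *Col1a1*, *Lum*, *Dpt*) summed to 176 to 417 CPM in control limbs and 650 to 1103 in recovery, beside the recovery values of *Gap43*, *Prx* and *Unc5a*. The 5 macrophage markers (*Cd68*, *Csf1r*, *Cd163*, *Mrc1*, *Adgre1*), none at 0 in any limb, summed to 27.5 to 92.7 CPM in control limbs (median 51.9), 48.8 to 105 in atrophy (103), 72.1 to 153 in recovery (117), 27.0 to 81.9 in repeated atrophy (74.4), 64.3 to 104 in sham left (89.3) and 41.9 to 106 in sham right limbs (87.4). The part of fibroblasts and macrophages in these results, and in those of *Jun* and of *Il6st*, the gp130 receptor gene, was not tested. The 5 measured markers of axons and motor neurons summed to 7.59 to 13.1 CPM in control limbs, 9.03 to 12.5 CPM under atrophy, 12.1 to 30.3 CPM under recovery and 16.2 to 18.9 CPM under repeated atrophy, and *Chat* was not in the table.

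*Ncam1* encodes the neural cell adhesion molecule, which nerve, Schwann cells and satellite cells carry and which denervated muscle fibres are known to display along their surface. On the log2(CPM + 1) scale it had the greatest rise of the 9 genes in atrophy and in repeated atrophy. Control limbs read 28.4, 13.8, 39.0, 48.1, 27.0, 18.3, 22, 8.01 and 25.9 CPM. Atrophy limbs read 171, 31.7 and 109 CPM, recovery limbs 29.8, 19.5 and 97.5 CPM, and repeated atrophy limbs 102, 361 and 537 CPM. All 3 repeated atrophy limbs lay above all 9 control limbs, whereas animal 367 in atrophy and animals 369 and 370 in recovery lay within the control range.

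The mean of *Ncam1* was 4.06 times control in atrophy (104 ± 69.9 against 25.6 ± 12.3 CPM), 1.91 times in recovery (48.9 ± 42.3) and 13.0 times in repeated atrophy (333 ± 219). On the log2 scale it rose by 1.83 in atrophy (SE 0.57, adjusted p = 0.0298) and by 3.50 in repeated atrophy (SE 0.57, adjusted p = 0.000299), and its difference in recovery was 0.73 (adjusted p = 0.459). The repeated atrophy rise held with the block (3.14, adjusted p = 0.00585) and after rescaling (3.13). The atrophy value was 1.60 with the block (adjusted p = 0.204) and 1.47 after rescaling (adjusted p = 0.0758), and it did not pass without animal 362 (1.36, adjusted p = 0.267) or animal 372 (1.67, adjusted p = 0.121). Without the weakly changed animal 367 it was 2.55 (adjusted p = 0.00642). *Ncam1* lies on chromosome 8 (49868513 to 50165538, minus strand).

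The muscle's own response to loss of nerve activity was read from 7 genes. Of these, 6 rose in atrophy, 0 passed in recovery and 7 rose in repeated atrophy, where 22.6%, 7.73% and 34.3% of all rows passed, with medians of 2.78, 0.50 and 4.04. With the block 0 passed in atrophy, 0 in recovery and 7 in repeated atrophy, beside 0, 9 and 3806 of 14031 rows. The medians were then 2.23, 1.67 and 3.47, so that the recovery median was higher within animals. *Chrna1*, the acetylcholine receptor alpha subunit gene, read 15.7 to 95.2 CPM in control limbs, 938, 69.9 and 431 in atrophy, 79.3, 39.3 and 249 in recovery and 561 to 1349 in repeated atrophy. Animal 367 was thus the lowest of the atrophy limbs and animal 371 the highest of the recovery limbs for *Chrna1*, as for *Ncam1*. *Musk*, the kinase gene that organises the postsynaptic membrane, rose by 1.41 and 1.71 (adjusted p = 0.0122 and 0.00157). *Gadd45a*, a stress response gene known to rise in denervated muscle, rose by 3.32 and 4.04 (adjusted p = 0.00511 and 0.000142). With the block *Chrna1* differed by 2.41 in atrophy (adjusted p = 0.174), 1.89 in recovery (adjusted p = 0.230) and 4.04 in repeated atrophy (adjusted p = 0.00510). Over the 24 limbs, the rows most like *Ncam1* among 10619 rows were *Chrna1* (Pearson r = 0.972) and *Chrnd* (r = 0.964), as a description across limbs that share animals and groups. The 4 satellite cell markers (*Pax7*, *Myf5*, *Chodl*, *Cdh15*) summed to 23.6 to 52.5 CPM in control limbs, 38.2 to 129 CPM under atrophy, 23.5 to 38.6 CPM under recovery and 51.7 to 79.7 CPM under repeated atrophy, with *Pax7* at 0 in 2 limbs, and their part in the *Ncam1* result was not tested.

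The NCAM protein is modified by polysialic acid, which loosens adhesion. Of 8 measured genes for this modification and for related adhesion molecules, 2 rose in atrophy, 0 passed in recovery and 1 rose in repeated atrophy. The medians were 0.10, 0.07 and 0.03, and 22.6%, 7.73% and 34.3% of all rows passed. With the block 0 of the 8 passed in any state, beside 0, 9 and 3806 of 14031 rows. The gene that rose in both was *St8sia2*, a polysialyltransferase gene named here after its values were seen. It read 0 to 0.230 CPM in control limbs, 1.39, 0.231 and 1.27 in atrophy, 0.253, 0.368 and 0.0486 in recovery and 0.419, 0.284 and 0.992 in repeated atrophy, and it rose by 0.84 and 0.54 (adjusted p = 0.00632 and 0.0146). With the block neither difference of *St8sia2* passed (adjusted p = 0.151 and 0.0623).

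*Artn* encodes artemin, a secreted factor of the glial cell line-derived neurotrophic factor (GDNF) family that signals through the co-receptor gene product of *Gfra3* and the kinase RET. Control limbs had few reads of it: 5, 1, 7, 5, 0, 5, 1, 0 and 6. Atrophy limbs had 12, 33 and 55 reads (0.408, 1.27 and 1.79 CPM), recovery limbs 0, 2 and 2 reads (0, 0.0819 and 0.0973 CPM), and repeated atrophy limbs 58, 14 and 30 reads (2.43, 0.497 and 1.15 CPM). Every silenced limb of both TTX periods lay above every control limb, whose highest value was 0.242 CPM, and all 3 recovery limbs were back within the control range.

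*Artn* rose by 0.89 in atrophy (SE 0.19, adjusted p = 0.00775) and by 0.99 in repeated atrophy (SE 0.19, adjusted p = 0.000914), and its difference in recovery was -0.08 (adjusted p = 0.846). As group means, it stood at 1.16 ± 0.698 and 1.36 ± 0.983 CPM against 0.122 ± 0.0983 in control (n = 9), ratios of 9.51 and 11.2, and the log2 values understate these ratios because the levels are below the added 1 CPM. The left limb was higher in all 6 animals of both TTX states. With the block the atrophy value was 0.88 (adjusted p = 0.166) and the repeated atrophy value 0.94 (adjusted p = 0.0214). Without animal 362 the atrophy rise was 1.18 (adjusted p = 0.0586). Sham limbs, left and right, read 0.466, 0.0885 and 0.438 CPM and 0.310, 0.0484 and 0.939 CPM, and 4 of these 6 limbs were above every control limb as well.

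The start of *Artn* is shown because this gene was higher in both TTX states and not in recovery. The gene lies on chromosome 5 (131464756 to 131468026 in rn7, minus strand), and the 250 bases before its RefSeq start are chr5:136753458-136753707 in GRCr8, minus strand. The capitals mark E-boxes, CANNTG, the core bound by myogenic and other helix-loop-helix factors, read the same on both strands.
Artn: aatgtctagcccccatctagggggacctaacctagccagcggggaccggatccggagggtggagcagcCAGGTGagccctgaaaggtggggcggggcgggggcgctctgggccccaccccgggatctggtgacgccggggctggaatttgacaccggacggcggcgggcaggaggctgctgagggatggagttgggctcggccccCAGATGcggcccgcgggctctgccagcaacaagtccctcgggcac
This window holds 2 E-boxes, and 30.8% of 33469 windows of the same length in the RefSeq table hold at least 2. It holds no CTANNNNTAG, a core of the kind read by MEF2 factors, which is present in 3.41% of the windows.

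Of 8 other genes of the GDNF family and its receptors, 0 rose in any of the 3 states, 1 fell in atrophy and 2 fell in repeated atrophy (medians -0.03, -0.05 and -0.10). Of all rows 22.6%, 7.73% and 34.3% passed in the 3 states, and 2.33%, 3.33% and 6.24% passed as lower. With the block 0 of the 8 passed, beside 0, 9 and 3806 of 14031 rows. *Ret*, the shared signalling receptor, fell by 0.82 in atrophy (adjusted p = 0.0207) and 0.94 in repeated atrophy (adjusted p = 0.00539), and its difference in recovery was 0.18. Its higher row, of 2, read 1.01 to 2.7 CPM in control limbs, 0.105, 0.816 and 0.721 in atrophy, 2.79, 2.79 and 0.938 in recovery and 0.628, 0.167 and 0.436 in repeated atrophy. All 6 limbs of the TTX states lay below all control limbs, and with the block neither difference passed (adjusted p = 0.275 and 0.0543). *Nrtn*, which encodes neurturin, fell by 0.78 in repeated atrophy (adjusted p = 0.0282, 0.153 with the block). *Gdnf*, at 0 to 0.722 CPM in control limbs, and *Gfra3*, at 0.046 to 1.52 CPM, passed in none of the comparisons. In sham animal 354, *Gfra3* read 9.12 and 7.95 CPM in the left and right limb, above the other 22 limbs.

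**Figure D3:**
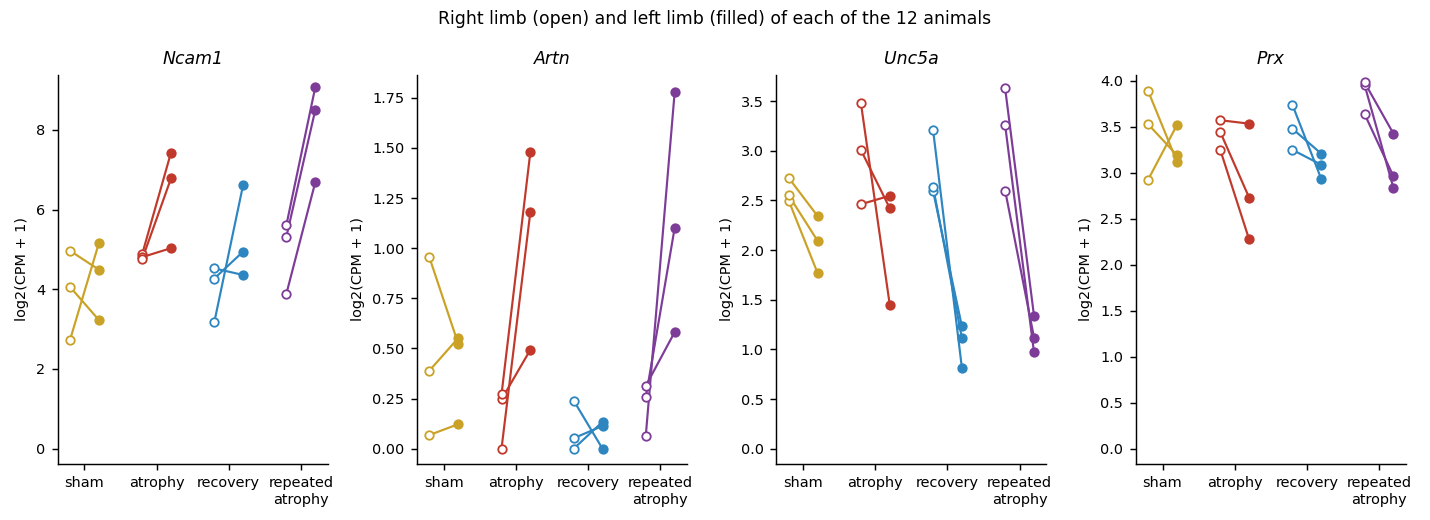
Right limb (open) and left limb (filled) of each rat for *Ncam1*, *Artn*, *Unc5a* and *Prx*, as log2(CPM + 1), with a line joining the limbs of a rat. In repeated atrophy all 3 lines rise for *Ncam1* and *Artn* and all 3 descend for *Unc5a* and *Prx*, while the sham lines of *Ncam1* and *Artn* go both ways.

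*Ntf3* encodes neurotrophin-3, which muscle is known to supply to sensory neurons of the muscle spindle through the receptor TrkC. Its 4 transcript rows share an end on chromosome 4 (158914984 in rn7, minus strand) and differ at the start, where rows of 1414 and 1304 bases reach 158984453 and 158984454 and rows of 1332 and 1370 bases reach 158982738. The RefSeq windows before the 2 starts are shown because the rows of *Ntf3* begin at one or the other. Reads were divided by an estimate also between rows with nearly the same start: in the atrophy limb of animal 367 the row of 1414 bases read 0.0284 CPM and the row of 1304 bases 1.501 CPM, of 1.537 CPM in all. They are chr4:160670624-160670873 (distal) and chr4:160668908-160669157 (proximal) in GRCr8, minus strand, with the E-box in capitals.
Ntf3 distal start: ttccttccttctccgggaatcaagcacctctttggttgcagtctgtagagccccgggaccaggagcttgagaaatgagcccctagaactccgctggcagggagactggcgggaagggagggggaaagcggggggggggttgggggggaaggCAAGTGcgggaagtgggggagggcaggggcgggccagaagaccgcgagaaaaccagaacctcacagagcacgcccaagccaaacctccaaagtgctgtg
Ntf3 proximal start: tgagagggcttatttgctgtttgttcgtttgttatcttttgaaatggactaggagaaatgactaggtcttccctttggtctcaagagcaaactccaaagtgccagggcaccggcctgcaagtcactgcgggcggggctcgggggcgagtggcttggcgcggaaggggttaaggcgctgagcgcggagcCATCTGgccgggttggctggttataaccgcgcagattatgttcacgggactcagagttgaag
Each window holds 1 E-box, and 65.5% of all windows hold at least 1.

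The highest row of *Ntf3*, of 1414 bases, read 0.000182 to 1.99 CPM in control limbs and 0.0419, 0.0284 and 0.0524 CPM in atrophy, a mean 14.8 times lower. The 4 control limbs of animals 362, 364, 367 and 372 read 0.0433 CPM or less, so the atrophy limbs lay within the control range, and the difference did not pass (-0.50, adjusted p = 0.225). Summed over the 4 rows, control limbs read 1.52 ± 0.495 CPM (n = 9), atrophy 1.46 ± 0.386, recovery 1.47 ± 0.179, repeated atrophy 1.12 ± 0.107, sham left 1.44 ± 0.0616 and sham right 1.22 ± 0.328. The sums differed from control by -0.02 (95% interval -0.38 to 0.34), -0.01 (-0.37 to 0.35) and -0.23 (-0.59 to 0.13). None of the 4 rows passed in any comparison. In the 3 animals of recovery and the 3 of repeated atrophy, the summed level was lower in the left than in the right limb, by means of 0.25 and 0.22 on the log2 scale, with adjusted p of 0.503 and 0.436 in the fit with the block.

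Of 7 other neurotrophin genes and receptors, 1 fell in atrophy, 1 rose in recovery and 1 fell in repeated atrophy (medians -0.08, -0.15 and -0.03), beside 22.6%, 7.73% and 34.3% of all rows in the 3 states. The gene that fell both times was *Ntf4*, which encodes neurotrophin-4, a factor known to follow muscle activity. *Ntf4* read 1.27 to 6.68 CPM in control limbs, 0.612, 2.92 and 0.0325 in atrophy, 2.02, 3.03 and 2.82 in recovery and 0.586, 0.177 and 0.305 in repeated atrophy. It fell by 1.11 in atrophy (adjusted p = 0.0290) and 1.58 in repeated atrophy (adjusted p = 0.00206), and its difference in recovery was -0.16 (adjusted p = 0.817). The repeated atrophy fall held with the block (-1.75, adjusted p = 0.00593), and the atrophy fall did not (-1.21, adjusted p = 0.157). *Sorcs2*, a sorting receptor gene that binds neurotrophin precursors, rose by 0.61 in recovery (adjusted p = 0.0425, 0.170 with the block). *Bdnf* and *Ntrk3*, which encode brain-derived neurotrophic factor and TrkC, passed in none of the 3 comparisons. *Ntrk3* summed over its rows passed in repeated atrophy with the block only (-0.43, adjusted p = 0.0270).

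*Unc5a* encodes a receptor for netrin, a guidance cue to which UNC5 receptors answer with repulsion. It was the gene of the 9 that fell in every treated state, and the sham left limbs were low as well. Control limbs read 10.2, 5.06, 8.55, 11.3, 4.51, 8.27, 5.05, 5.23 and 7.04 CPM. Atrophy limbs read 1.73, 4.84 and 4.36 CPM, recovery limbs 0.759, 1.35 and 1.17 CPM, and repeated atrophy limbs 1.17, 0.958 and 1.53 CPM. The 6 limbs of recovery and repeated atrophy lay below all 9 control limbs, as did 2 of the 3 atrophy limbs.

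*Unc5a* fell by 0.85 in atrophy (SE 0.27, adjusted p = 0.0326), by 1.93 in recovery (SE 0.27, adjusted p = 0.00113) and by 1.84 in repeated atrophy (SE 0.27, adjusted p = 0.000153). The mean in control was 7.25 ± 2.48 CPM (n = 9), which was 1.99, 6.64 and 5.95 times the means of the 3 states. With the block the values were -0.84 (adjusted p = 0.262), -1.76 (adjusted p = 0.102) and -2.02 (adjusted p = 0.00603). The recovery and repeated atrophy falls passed without any 1 of their animals, and the atrophy fall did not pass without animal 362 (-0.44, adjusted p = 0.387) or 372 (-0.99, adjusted p = 0.0579), nor with all 12 right limbs as control (-0.75, adjusted p = 0.0530).

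The sham limbs were low for *Unc5a* on the left side. Sham left limbs read 2.41, 4.07 and 3.27 CPM and sham right limbs 4.65, 5.61 and 4.86 CPM. All 3 sham left limbs were below every control limb and below the right limb of the same animal, but the difference from control did not pass (-0.92, 95% interval -1.49 to -0.34, unadjusted p = 0.00414, adjusted p = 0.251), and without animal 354 it was -0.77. The recovery and repeated atrophy limbs lay below the sham left limbs too, at 1.53 CPM or less against 2.41 CPM or more. The sham group and the TTX states were not tested against each other.

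*Unc5a* lies on chromosome 17 (9615886 to 9670260 in rn7, minus strand). The 250 bases before its RefSeq start, chr17:9675664-9675913 in GRCr8, minus strand, are shown for the gene with the most lasting fall. They are 75.6% G and C, against 70.8% for *Artn*, and hold neither an E-box nor a CTANNNNTAG, so no letters are in capitals.
Unc5a: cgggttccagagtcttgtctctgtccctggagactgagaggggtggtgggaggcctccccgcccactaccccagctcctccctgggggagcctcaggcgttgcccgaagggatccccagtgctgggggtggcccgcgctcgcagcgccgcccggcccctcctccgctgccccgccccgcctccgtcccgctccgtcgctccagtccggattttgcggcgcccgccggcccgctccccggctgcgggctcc

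Of 9 measured genes of netrin guidance, 0 passed in atrophy and recovery and 1 rose in repeated atrophy (medians 0.02, -0.04 and 0.00), beside 22.6%, 7.73% and 34.3% of all rows. This was *Flrt2*, which encodes a membrane ligand of UNC5 receptors, with a rise of 0.99 (adjusted p = 0.00300). *Ntn1*, the gene of netrin-1, differed by -0.15, -0.27 and 0.00, and *Unc5b*, a relative of *Unc5a*, by 0.37, 0.28 and 0.25, with adjusted p of 0.470 or more for both. The rows most like *Unc5a* over the 24 limbs were *LOC294154* (Pearson r = 0.932) and *Lrrc20* (r = 0.915). For *Artn* they were *Hspb1* (r = 0.881) and *Rnd1* (r = 0.866), and for *Prx* they were *Itgb4* (r = 0.863) and *Ppl* (r = 0.811). For the other members the highest r lay between 0.619 and 0.763.

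**Figure D4:**
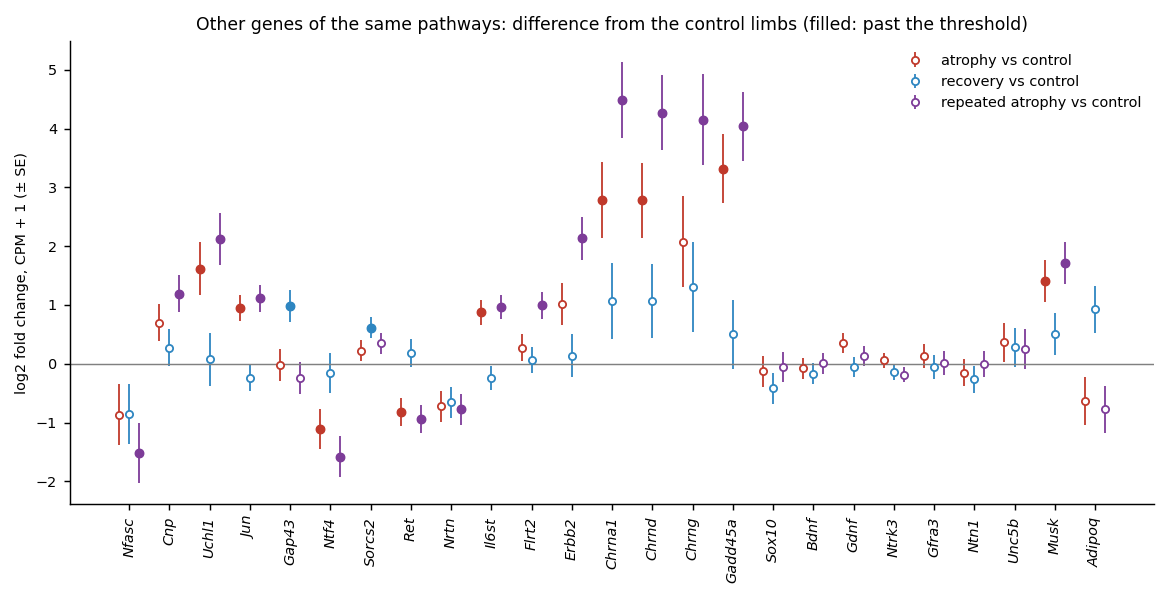
Log2 fold change of CPM + 1 with its SE for 25 other genes of the same pathways, in atrophy, recovery and repeated atrophy against control. Filled points passed the threshold. The acetylcholine receptor genes *Chrna1*, *Chrnd* and *Chrng* and *Gadd45a* reach 4.04 to 4.49 in repeated atrophy, *Ntf4* and *Ret* lie below 0 in both TTX states, and *Sox10*, *Bdnf*, *Ntrk3*, *Gfra3* and *Ntn1* differ by at most 0.42 from control in all 3 states.

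The 2 remaining pathways gave 1 gene each, where 22.6%, 7.73% and 34.3% of all rows passed in atrophy, recovery and repeated atrophy. Of 8 genes of the ciliary neurotrophic factor family, *Il6st*, which encodes the shared receptor gp130, rose by 0.87 in atrophy and 0.97 in repeated atrophy (adjusted p = 0.0103 and 0.00196), with medians of 0.30, 0.08 and 0.28 over the list. With the block the atrophy value of *Il6st* was 0.63 (adjusted p = 0.188). After rescaling *Il6st* rose by 0.51 and 0.59 (adjusted p = 0.0357 and 0.00665), and the medians of the list were 0.05, 0.07 and 0.02. Of 7 genes of neuregulin signalling, by which axons instruct Schwann cells, *Erbb2* rose by 2.13 in repeated atrophy (adjusted p = 0.000383), with a median of -0.05 over the list in each state. *Erbb2* read 1.51 to 5.89 CPM in control limbs, 6.80, 4.38 and 10.3 in atrophy (difference 1.02, adjusted p = 0.0512), 2.58, 1.51 and 7.44 in recovery and 9.80, 19.5 and 20.9 in repeated atrophy.

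The states were also compared with each other. Recovery against atrophy passed for 2 of the 9 genes (17.9% of all rows): *Artn* was lower in recovery (-0.97, adjusted p = 0.0131), and so was *Unc5a* (-1.09, adjusted p = 0.0321). Repeated atrophy against recovery passed for 2 (27.2% of all rows), *Ncam1* (2.78, adjusted p = 0.00857) and *Artn* (1.07, adjusted p = 0.00421), both higher in repeated atrophy. Repeated atrophy against atrophy passed for 0 of the 9 genes and for 5 of 14031 rows (0.0356%), with 884 rows at an unadjusted p under 0.05. In it, *Ncam1* differed by 1.67 (95% interval 0.19 to 3.15, adjusted p = 0.711) and *Unc5a* by -0.998 (-1.69 to -0.30, adjusted p = 0.503). With the block 0 of the 9 passed in any of these 3 comparisons, beside 2, 12 and 0 of all rows. Without 1 animal at a time, *Artn* in recovery against atrophy did not pass without animals 369, 370 or 372, and *Unc5a* passed there only without animal 362. *Ncam1* in repeated atrophy against recovery did not pass without animal 370 (2.30, adjusted p = 0.0617).

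**Figure D5:**
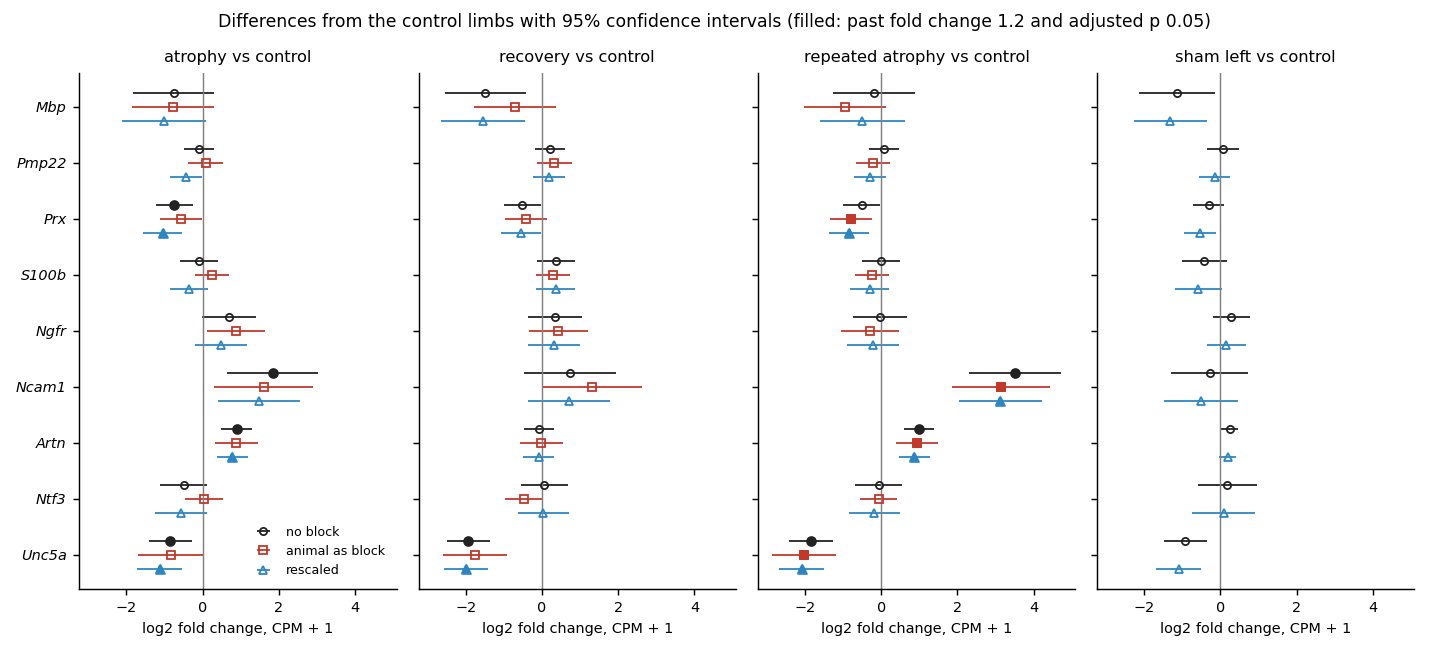
Log2 fold change of CPM + 1 with its 95% confidence interval for the 9 genes against control, in the fit without a block (black circles), with the animal as a block (red squares) and after rescaling (blue triangles). Filled marks passed the threshold. *Ncam1*, *Artn* and *Unc5a* in repeated atrophy are filled in all 3 fits, and the sham left panel, which has no block, holds no filled mark.

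In sham left against control, 0 of the 9 genes and 0 of 13822 rows passed (0% of all rows), with 1904 rows at an unadjusted p under 0.05 in limma. The differences ranged from -1.14 for the highest row of *Mbp* (adjusted p = 0.342) to 0.28 for *Ngfr*, and *Artn* differed by 0.24 (unadjusted p = 0.0382, adjusted p = 0.354). Without sham animal 354, 377 or 379, 0 of the 9 genes passed each time, and of all rows 0, 118 and 8 passed, with 934, 3411 and 1463 at an unadjusted p under 0.05. In sham left against sham right, 0 of the 9 genes and 0 of 13483 rows passed (0%), with 85 rows at an unadjusted p under 0.05 and 576 with the block. The limits of *Ncam1* in sham left against control, -1.29 to 0.71, lay below the rise in repeated atrophy, whose lower limit was 2.30. These limits come from separate fits, and the groups were not tested against each other. Within sham animals, *Ncam1* read 34.7 CPM on the left and 5.61 on the right in animal 377, a log2 difference of 2.43. It was lower on the left in animals 354 (8.39 against 15.7 CPM) and 379 (21.5 against 30.3 CPM). The mean left-right difference was 0.38 ± 1.79 (SD) in sham animals, 1.60 ± 1.22 in atrophy and 3.14 ± 0.33 in repeated atrophy.

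Levels of different genes can be compared per length. In control limbs and per kilobase of the highest row, *Pmp22* was the most abundant (16.4 ± 3.73 CPM per kb, n = 9), followed by *Ncam1* (8.06 ± 3.87), *Mbp* (3.64 ± 2.00), *Unc5a* (2.69 ± 0.921), *S100b* (2.46 ± 0.657) and *Prx* (2.42 ± 0.5). *Ntf3* (0.428 ± 0.520), *Ngfr* (0.325 ± 0.133) and *Artn* (0.0913 ± 0.0738) were the lowest. The ranges of *Mbp*, *Unc5a*, *S100b* and *Prx* overlapped, as did those of *Ntf3*, *Ngfr* and *Artn*. The range of *Ncam1*, 2.52 to 15.1 CPM per kb, overlapped those of *Pmp22* above it and of *Mbp*, *Unc5a*, *S100b* and *Prx* below it. Within the same limb, *Pmp22* was above *Ncam1* in 9 of 9 control limbs and *Ncam1* above *Mbp* in 8 of 9. The next neighbours were not ordered limb by limb, since *Mbp* was above *Unc5a* in 5 of 9, *Unc5a* above *S100b* in 3 of 9 and *S100b* above *Prx* in 6 of 9. *Prx* was above *Ntf3* in 9 of 9, *Ntf3* above *Ngfr* in 3 of 9 and *Ngfr* above *Artn* in 9 of 9. The highest row held only a part of the reads of *Ntf3* (0.606 of a summed 1.52 CPM, control means) and of *Mbp* (7.13 of 11.2 CPM). Their places in this order, such as *Ntf3* against *Ngfr*, are therefore uncertain and may be too low.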

How the data were processed

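Total RNA of 24 TA muscles was made into directional libraries from polyadenylated RNA and sequenced as paired ends by the study. Per the methods and the labels, the authors removed contaminant reads with bowtie2 2.2.5, aligned to rn7 with STAR and processed the data in Partek Flow. The annotation and counting step are not given in the sources used here. The table the authors deposited holds CPM per transcript row: columns total about 999000 once duplicates are dropped, although the study names a median of ratios. The tests planned for normalised values were kept. Of 14271 rows, 28 duplicates were dropped. In 513 symbols reads are divided over several rows by an estimate, so counts were not treated as recovered, although 97.4% to 98.6% of low values of symbols with 1 row were whole multiples of 1 read (tolerance 0.02). Reads per limb of such a symbol are its CPM divided by the value of 1 read, and depth is inferred from it. 3 value columns match no sample record and were not used.

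Values were log2(CPM + 1). A row entered a fit if it exceeded 0 in 3 or more of its limbs, and limma 3.58.1 under R 4.3.3 was run with its trend option, after the study's comparison of left with pooled right limbs. Atrophy, recovery, repeated atrophy and control shared 1 fit of 18 limbs without a block (14031 rows). Sham left was fitted against control (12 limbs) and against sham right (6 limbs). P-values are Benjamini-Hochberg adjusted over all rows. The test was first run on simulated data with known changes. In those data all limbs were independent and all rows had the same spread setting, so the run does not cover paired limbs. The same animal gives both limbs of a pair: limb deviations correlated with a mean r of 0.118 over the 9 TTX animals, negative in 3, and 0.745 over the 3 sham animals (10619 rows of at least 1 CPM). The alternatives tried were a pseudocount of 0.1 or 10, a trimmed-mean rescaling of each limb (30% of ratios and 5% of levels trimmed), filters, 12 right limbs as control, the animal as a block, and leaving out animals. Rows summed per symbol, and the same with the block, were added after seeing the data. The 9 genes and the pathway lists were chosen with earlier results of these data known.

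By rule, at most 4 genes of a list are described, those with the greatest absolute change in repeated atrophy among genes past the threshold in a comparison with control and with a group mean of at least 1 CPM, plus *Sox10*, *Bdnf*, *Gdnf*, *Ret*, *Ntrk3*, *Gfra3*, *Ntn1*, *Unc5b*, *Chrna1*, *Musk* and *Adipoq*. *Cldn19*, *Cadm4*, *Pllp*, *Ncam2* and *St8sia2* were named after their values were seen, and repair genes that passed nowhere are listed by name without values. Some genes of the lists are not reported here and were left out of the list counts and marker sums. Row coordinates are those of the deposited table in rn7. Promoter windows come from a RefSeq table in GRCr8, in which 7 of the 9 symbols matched, and motifs were searched in the 250 bases before the start.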

Additional observations from a re-analysis of the deposited data

Results flagged for a closer look

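Of 36 tests for a limb far from the other 8 in the control group, 3 pointed to the highest limb, and chance gives about 1 in 20. The gap to the next limb, as a share of the group's range, was 0.67 for *Uchl1*, 0.72 for *Chrng* and 0.60 for *Sox10*.

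Effects against control differed between states by limma's test of the difference itself, with adjusted p at or under 0.05 in the fit without a block. With the animal as a block none of them passed, and after rescaling *Unc5a* in recovery against atrophy and *Chrng*, *Musk* and *Flrt2* in repeated atrophy against recovery did not pass. In recovery relative to atrophy the log2 difference was -0.97 for *Artn*, -1.09 for *Unc5a*, -1.19 for *Jun*, 1.00 for *Gap43*, 1.00 for *Ret*, -1.11 for *Il6st*, -2.81 for *Gadd45a* and 1.56 for *Adipoq*, the adipocyte hormone gene. In repeated atrophy relative to recovery, the genes of the response to lost nerve activity were higher, by 2.78 for *Ncam1*, 3.42 for *Chrna1*, 3.20 for *Chrnd*, 2.85 for *Chrng*, 3.54 for *Gadd45a* and 1.2 for *Musk*. Signal and injury genes differed by 1.07 for *Artn*, 2.05 for *Uchl1*, 1.35 for *Jun*, -1.22 for *Gap43*, -1.42 for *Ntf4*, -1.12 for *Ret*, 1.21 for *Il6st*, 0.93 for *Flrt2* and 2.00 for *Erbb2*, and *Adipoq* by -1.70. These differences share the recovery limbs, and their causes were not tested.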

How the results depend on the processing

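With the animal as a replicate block, 0, 0 and 4 of the 9 genes passed against control in atrophy, recovery and repeated atrophy, where 4, 1 and 3 passed without it, and of all rows 0, 9 and 3806 passed. With block and rescaling together 0 of the 9 passed in atrophy and recovery and 4 in repeated atrophy (*Ncam1* higher, *Pmp22*, *Prx* and *Unc5a* lower, *Artn* lost), and 0, 71 and 2960 of all rows in the 3 states. With rows summed per symbol and the block, an alternative chosen after seeing the data, 0, 0 and 4 of the 9 passed in the 3 states. Of 13247 summed rows 0, 12 and 3860 passed. With rescaling alone 1359 rows passed in atrophy, fewer than the 3171 without it, and 1699 in recovery, more than the 1084 without it. In recovery against atrophy, 0 of the 9 passed with a pseudocount of 10 (2335 of all rows) and 1 after rescaling (1499). In each of the 3 fits with the block 0 of the 9 passed, and 2 of all rows. In repeated atrophy against recovery, 1 of the 9 passed with a pseudocount of 10 (3536 of all rows). There 0 passed in each fit with the block, which left 12, 7 (rescaled) and 21 (summed) rows. Among rows of at least 1 CPM only 7 of the 9 genes were tested, as *Artn* and *Ntf3* were below that filter. In that setting 1 gene passed in recovery against atrophy (2779 rows) and 1 in repeated atrophy against recovery (3875 rows). In repeated atrophy against atrophy, in place of 5 rows, 11 passed with a pseudocount of 0.1, 0 after rescaling, 18 with 12 right limbs as control, 8 with summed rows and 0 in each fit with the block. In sham left against control 1 summed row passed in place of 0. *Pmp22* in repeated atrophy turned from 0.07 to -0.58 with block and rescaling (adjusted p = 0.0308), and *Pllp* in repeated atrophy against recovery turned to -0.032 (adjusted p = 0.959). The causes were not tested.

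Leaving out 1 animal gave 0 to 4 of the 9 genes in atrophy, 1 to 2 in recovery, 3 in repeated atrophy, 0 to 2 in recovery against atrophy, 1 to 2 in repeated atrophy against recovery, and 0 in repeated atrophy against atrophy and both sham comparisons. Without animal 362, *Uchl1*, *Jun*, *Ntf4*, *Ret*, *Il6st*, *Chrna1*, *Chrnd*, *Musk*, *Gadd45a*, *Cldn19*, *Ncam2* and *St8sia2* did not pass in atrophy (adjusted p of 0.125 to 0.315), nor did *Ntf4*, *Musk*, *Cldn19* and *Ncam2* without 372. *Gap43* and *Sorcs2* in recovery did not pass without any 1 of 369, 370 and 371, nor *Pllp* without 371, and in repeated atrophy *Ret* and *Cnp* did not pass without 365, *Nfasc* and *Nrtn* without 365 or 366, and *St8sia2* without 366. For all rows the ranges were 1 (without animal 362) to 4841 (without animal 367), 184 to 537, 2573 to 4430, 398 to 3704, 1844 to 3577, 0 to 36, 0 to 118 for sham left against control and 0 for sham left against sham right. Of 659 log2 fold changes of the 9 genes recomputed under other settings, 562 kept their direction and side of the threshold, 56 moved, 36 no longer passed, 4 newly passed and 1 reversed. At 1 read per 0.0324 to 0.0530 CPM, *Artn* in control and recovery limbs rested on at most 7 reads, which limits its precision.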

Other observations

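Sham animal 354 had higher lymphocyte and vessel marker levels in both limbs. The 4 measured T and NK cell markers summed to 106 CPM in its left and 91.2 CPM in its right limb, against 0.23 to 7.16 CPM in control limbs. The 6 endothelial markers reached 428 CPM in sham left and 496 CPM in sham right limbs against 177 to 231 CPM in control limbs. Their medians, 257 CPM in sham left and 314 CPM in sham right limbs, were above the control range as well, so high vessel markers were not particular to animal 354.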
